A study of Mus musculus with 14 samples.

Results

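The 7 transcripts examined here sit high in central regulatory T cells and low in effector regulatory T cells: Cnn3, Dapk1, Aqp11, Ly6c1, Xkrx, Trim13 and Selp. They are 7 of the 22203 named transcript clusters (array features that stand for 1 gene) on the mouse Clariom S array. All 7 were chosen by their fall in signal from central to effector cells on these same arrays. The 5 largest falls among the control arrays gave Cnn3, Dapk1, Aqp11, Ly6c1 and Xkrx, and the 5 largest falls among the KO arrays gave Dapk1, Trim13, Cnn3, Selp and Ly6c1, so 3 genes came from both, 2 from the controls alone and 2 from the KO arrays alone.

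The arrays measured sorted cells from mixed bone marrow chimeras. CD45.2+ marrow of Foxp3Cre Atg14+/fl mice, the heterozygous control, or of Foxp3Cre Atg14fl/fl mice, the KO, had been combined 1:1 with wild-type CD45.1+ marrow and given to Rag1-/- hosts after sublethal irradiation, with 6 to 8 weeks of reconstitution. Donor cells (CD45.2+ per the methods) positive for CD4 and Foxp3-YFP were sorted as CD44 low CD62L high central Tregs (cTregs) or CD44 high CD62L low effector Tregs (eTregs), which gave 4 control cTreg, 3 KO cTreg, 4 control eTreg and 3 KO eTreg arrays. All groups, the controls included, carry Cre under Foxp3 and at least 1 floxed Atg14 allele, so that deletion is limited to cells that have expressed Foxp3. Rag1-/- hosts make no T or B cells of their own but keep their other cells, the series text names spleen and lymph nodes where the methods name spleen, and the age of the mice is not given in the labels. The labels do not say that each array came from its own mouse, so P values measure the spread between these arrays.

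Central Tregs recirculate through lymphoid organs, and effector Tregs are antigen-experienced cells that carry CD44, ICOS and inhibitory receptors. Atg14 belongs to the Vps34 complex that starts autophagosome formation. None of the 7 genes is among the 22 established central Treg genes that are set beside them below. Cnn3 and Dapk1 encode an actin-binding calponin and a calmodulin-regulated kinase tied to cell death and autophagy. Aqp11 and Xkrx encode membrane proteins, an intracellular aquaporin and a relative of the XK protein. Ly6c1 and Selp encode surface proteins, a GPI-anchored Ly6 protein and the adhesion receptor P-selectin, which is best known from platelets and endothelium. Trim13 encodes a ubiquitin ligase of the endoplasmic reticulum.

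The sorted cells carried the genes of their gate. Foxp3 lay between 12.74 and 13.12 on the log2 scale of the arrays and Cd4 between 12.46 and 12.75 on all 14 arrays, whereas the Il2ra feature read only 6.94 to 8.44. Cd44 rose by 1.61 from control cTregs to control eTregs (adjusted P = 0.000121; limma, Benjamini-Hochberg over all 22203 features, as for every adjusted P here). The Atg14 signal was not lower on the arrays labelled KO: it was 0.32 higher than control in eTregs (adjusted P = 0.55) and 0.35 higher in cTregs (adjusted P = 0.9999), by limma. Whether the array's Atg14 probes lie in the deleted part is not given in the sources used here, so this neither checks the label nor contradicts it. The study reported Atg14 deletion by quantitative PCR in Tregs sorted from Foxp3Cre Atg14fl/fl mice, not from these chimeras. Below, "KO" means labelled KO.

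One array stands apart among the eTregs, and the results below are given with and without it. Array medians were alike, 8.77 to 8.90. On KO eTreg 1 the mean of 28 effector Treg genes was 9.92, below the 10.27 to 10.71 of the control eTregs and the 10.63 and 10.76 of KO eTregs 2 and 3. On the same array the mean of 22 established central Treg genes was 12.03, above the 11.77 to 11.83 of the control eTregs. KO eTregs 2 and 3 differed in another respect: the mean of 15 monocyte and macrophage genes was 10.44 and 10.39 there, against 8.34 on KO eTreg 1, 8.57 to 8.93 on the control eTregs and 7.98 to 8.20 on all cTreg arrays. All 15 of those genes were above control on average in KO eTregs, 9 of them past the study's threshold (a log2 difference of 0.5 with an unadjusted P of 0.05) and 0 at adjusted P, with Csf1r higher by 1.55 (adjusted P = 0.301; limma). The mean of the 12 dendritic cell genes was 10.01 and 10.29 on KO eTregs 2 and 3. It was 9.09 on KO eTreg 1 and 9.03 to 9.18 on the control eTregs. Of the 12, 9 were above control on average in KO eTregs, all 9 past the study's threshold and 1 at adjusted P. Flt3, Clec9a and Zbtb46 were slightly below control. The 1 at adjusted P was Siglech, a plasmacytoid dendritic cell gene, 1.78 higher in KO eTregs (adjusted P = 0.000483 by limma). Its KO eTreg mean of 10.41 was near its highest array, 10.79, so Siglech was not high on KO eTregs 2 and 3 alone. B cell genes (8.81 and 8.799, against 8.33 to 8.52 on the control eTregs) and CD8 T and NK genes (8.89 and 8.94, against 8.16 to 8.55) were also above the control range on KO eTregs 2 and 3, and neutrophil genes were not.

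**Figure D1:**
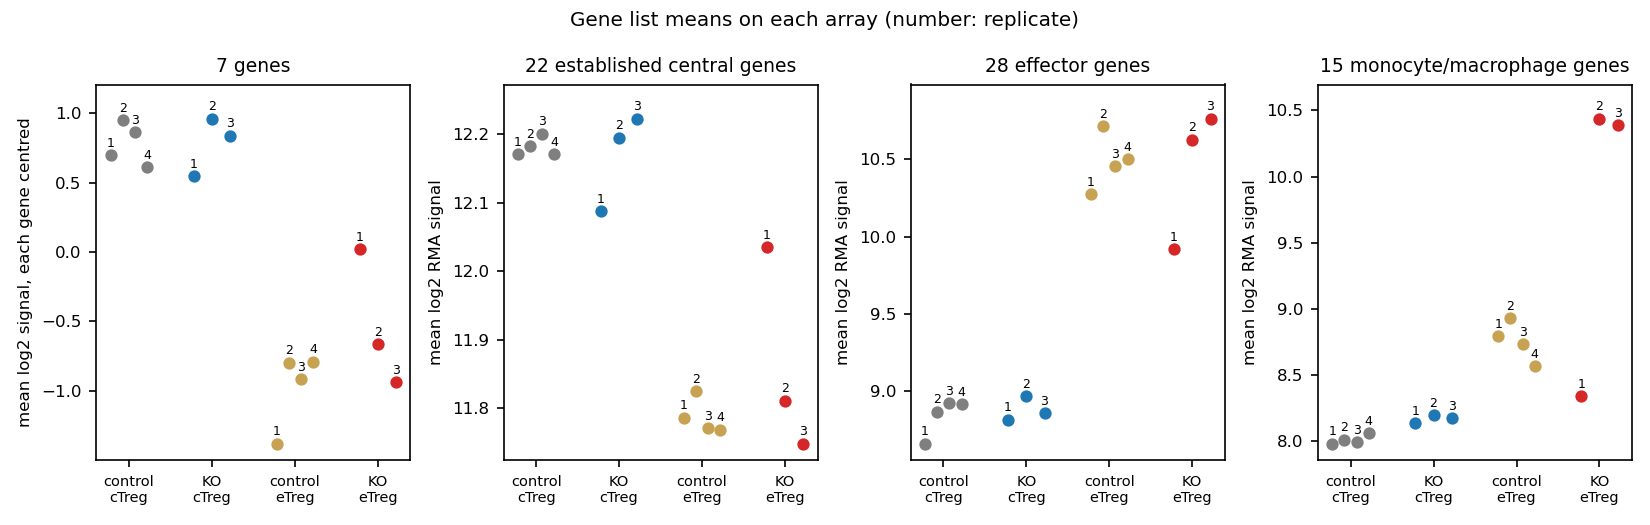
Each point is 1 array, numbered by replicate, in the 4 groups; the y axis is the mean log2 signal of the 7 genes (each first centred on its own mean), of 22 established central Treg genes, of 28 effector Treg genes and of 15 monocyte and macrophage genes. KO eTreg 1 reads 0.02 for the 7 genes where the other eTreg arrays read -1.38 to -0.67, and KO eTregs 2 and 3 read 10.44 and 10.39 for the monocyte and macrophage genes.

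Promoter sequence was available for 7 of the 7 genes (RefSeq, build GRCm38.p6, 250 bases before to 50 after the annotated start). A set of 4 motif classes, named for factors of the resting T cell state, was searched on both strands by its letters: FOXO-type GTAAACA, TCF/LEF-type CTTTGAT, KLF-type CCACACCC and ETS-type CCGGAAG. No match overlapped another. Selp held a TCF/LEF-type match that begins at position -209 from its start, and Trim13 a KLF-type match that begins at -49 from the first of its 2 starts, both on the opposite strand. The other 5 genes held none of the 4 in these windows. Over all 32851 promoters in the table, 3.65% held the FOXO-type letters, 3.73% the TCF/LEF-type, 3.56% the KLF-type and 8.86% the ETS-type, and 18.7% held at least 1 of them, so 2 of 7 genes is a description only. The 2 promoters with a match are shown with the matched letters in capitals, followed by those of Cnn3 and Ly6c1, whose signal differed most between KO and control eTregs and which contrast in composition.
Selp, chr1:164115014-164115313, plus strand: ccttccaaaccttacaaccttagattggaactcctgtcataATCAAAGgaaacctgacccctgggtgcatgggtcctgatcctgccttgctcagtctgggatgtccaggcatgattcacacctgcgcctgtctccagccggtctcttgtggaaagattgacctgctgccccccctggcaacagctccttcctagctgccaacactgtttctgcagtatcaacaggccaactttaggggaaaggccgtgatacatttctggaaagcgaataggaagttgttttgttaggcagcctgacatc
Trim13, chr14:61597976-61598275, plus strand: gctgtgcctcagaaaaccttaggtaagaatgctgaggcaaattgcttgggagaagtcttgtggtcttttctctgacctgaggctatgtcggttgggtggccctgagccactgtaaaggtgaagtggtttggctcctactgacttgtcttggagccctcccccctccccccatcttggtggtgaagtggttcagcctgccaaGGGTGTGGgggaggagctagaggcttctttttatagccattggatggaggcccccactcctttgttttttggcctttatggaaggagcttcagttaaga
Cnn3, chr3:121426291-121426590, plus strand: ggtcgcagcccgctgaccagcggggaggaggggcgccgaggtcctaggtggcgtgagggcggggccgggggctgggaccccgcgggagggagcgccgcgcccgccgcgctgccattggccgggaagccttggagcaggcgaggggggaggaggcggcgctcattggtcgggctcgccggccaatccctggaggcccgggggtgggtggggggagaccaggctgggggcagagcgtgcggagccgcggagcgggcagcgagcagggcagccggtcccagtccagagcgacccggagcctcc
Ly6c1, chr15:75048614-75048913, minus strand: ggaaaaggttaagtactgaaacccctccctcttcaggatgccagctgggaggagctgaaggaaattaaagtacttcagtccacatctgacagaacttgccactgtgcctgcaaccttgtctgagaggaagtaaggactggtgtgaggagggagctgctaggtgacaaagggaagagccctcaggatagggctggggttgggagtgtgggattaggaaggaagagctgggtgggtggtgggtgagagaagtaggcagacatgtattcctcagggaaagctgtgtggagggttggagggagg

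The 7 promoters did not share a base composition. The window of Cnn3 was 78.3% G and C with 33 CpG sites, that of Dapk1 77.7% with 38 and that of Aqp11 68% with 27, against medians of 52.7% and 7 sites over all promoters in the table. The window of Ly6c1 printed above had 53.7% and 0 CpG sites, that of Selp 51.7% and 4, and that of Xkrx 52.7% and 8. The 2 starts of Trim13 differed, with 1 CpG site around the printed start and 18 around the other.

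Cnn3 had the largest fall with subset in the controls and the largest difference between KO and control eTregs of the 7. Its log2 signals on the control cTreg arrays were 9.42, 9.72, 9.31 and 9.46, and on the KO cTreg arrays 8.98, 9.74 and 9.54. On the control eTreg arrays they were 6.67, 7.18, 6.30 and 7.83, and on the KO eTreg arrays 8.15, 8.10 and 7.66. All eTreg arrays lay below all cTreg arrays, and the KO eTregs lay above 3 of the 4 control eTregs and overlapped the fourth. The means and SDs were 6.995 ± 0.66 (n = 4) in control eTregs and 7.97 ± 0.27 (n = 3) in KO eTregs. The 6.30 of control eTreg 3 was at background, where the median of the background probe sets was 6.00 to 6.30 per array. Without control eTreg 3 the difference between KO and control eTregs was 0.74.

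Dapk1 also had all of its eTreg arrays below all of its cTreg arrays. The control cTreg arrays read 10.38, 10.93, 10.90 and 10.07 and the KO cTreg arrays 10.77, 10.74 and 10.90. The control eTreg arrays read 7.78, 8.62, 9.03 and 8.29 and the KO eTreg arrays 9.77, 8.84 and 8.51. KO eTreg 1 was the highest of the 7 eTreg arrays, and the other 2 KO arrays lay within the control range.

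Aqp11 came down to background on some of the effector arrays. The control cTreg arrays read 7.34, 8.19, 8.25 and 8.38 and the KO cTreg arrays 7.22, 7.87 and 7.53. The control eTreg arrays read 5.18, 6.28, 6.31 and 7.01 and the KO eTreg arrays 7.76, 5.81 and 6.44. The median of the background probe sets was 6.00 to 6.30 per array, so the control eTreg mean of 6.20 was at background, and the size of the fall of Aqp11 is bounded by it. KO eTreg 1 lay inside the cTreg range, and KO eTregs 2 and 3 inside the control eTreg range.

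Ly6c1 was lower on every eTreg array than on any cTreg array. The control cTreg arrays read 11.52, 11.78, 11.92 and 12.07 and the KO cTreg arrays 11.94, 12.36 and 11.94. The control eTreg arrays read 10.52, 9.99, 10.39 and 9.87 and the KO eTreg arrays 11.17, 10.71 and 10.59. It was the only 1 of the 7 in which every KO eTreg array lay above every control eTreg array, by 0.07 between the closest arrays, and 3.01% of all 22203 features had that order; the genotype difference did not pass at adjusted P.

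Xkrx had the widest spread of the 7 among control cTregs (SD 0.78, n = 4). The control cTreg arrays read 9.84, 8.98, 8.19 and 8.23 and the KO cTreg arrays 8.25, 8.45 and 8.77. The control eTreg arrays read 6.29, 7.63, 7.60 and 7.43 and the KO eTreg arrays 8.33, 7.45 and 6.59. KO eTreg 1 again lay inside the cTreg range, and KO eTregs 2 and 3 inside that of the control eTregs.

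Trim13 showed no separation by genotype. The control cTreg arrays read 8.74, 9.73, 9.41 and 8.97 and the KO cTreg arrays 9.29, 9.77 and 9.37. The control eTreg arrays read 7.79, 8.44, 8.09 and 7.68 and the KO eTreg arrays 8.18, 8.12 and 7.63. The array holds another Trim13 feature, placed on chromosome 12 and described in the file as a processed pseudogene; it read 6.34 to 7.01 on all arrays and differed between subsets by -0.31 in controls (adjusted P = 0.25) and -0.22 in KO (adjusted P = 0.54), by limma. The values above are those of the brighter feature on chromosome 14.

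Selp was lower on every eTreg array than on any cTreg array. The control cTreg arrays read 10.62, 10.31, 11.04 and 10.09 and the KO cTreg arrays 10.35, 10.76 and 10.78. The control eTreg arrays read 9.08, 9.27, 8.84 and 9.33 and the KO eTreg arrays 9.77, 9.30 and 8.99. Only KO eTreg 1 lay above the control eTregs. The 12 platelet and megakaryocyte genes, Pf4 and Gp9 among them, differed between control subsets by a median of 0.09 with 0 called at P or adjusted P, and the 10 endothelial genes by -0.01 with 0 called. In bulk RNA of sorted cells, fewer cells expressing a gene and less RNA per cell cannot be told apart, for Selp as for the other 6.

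**Figure D2:**
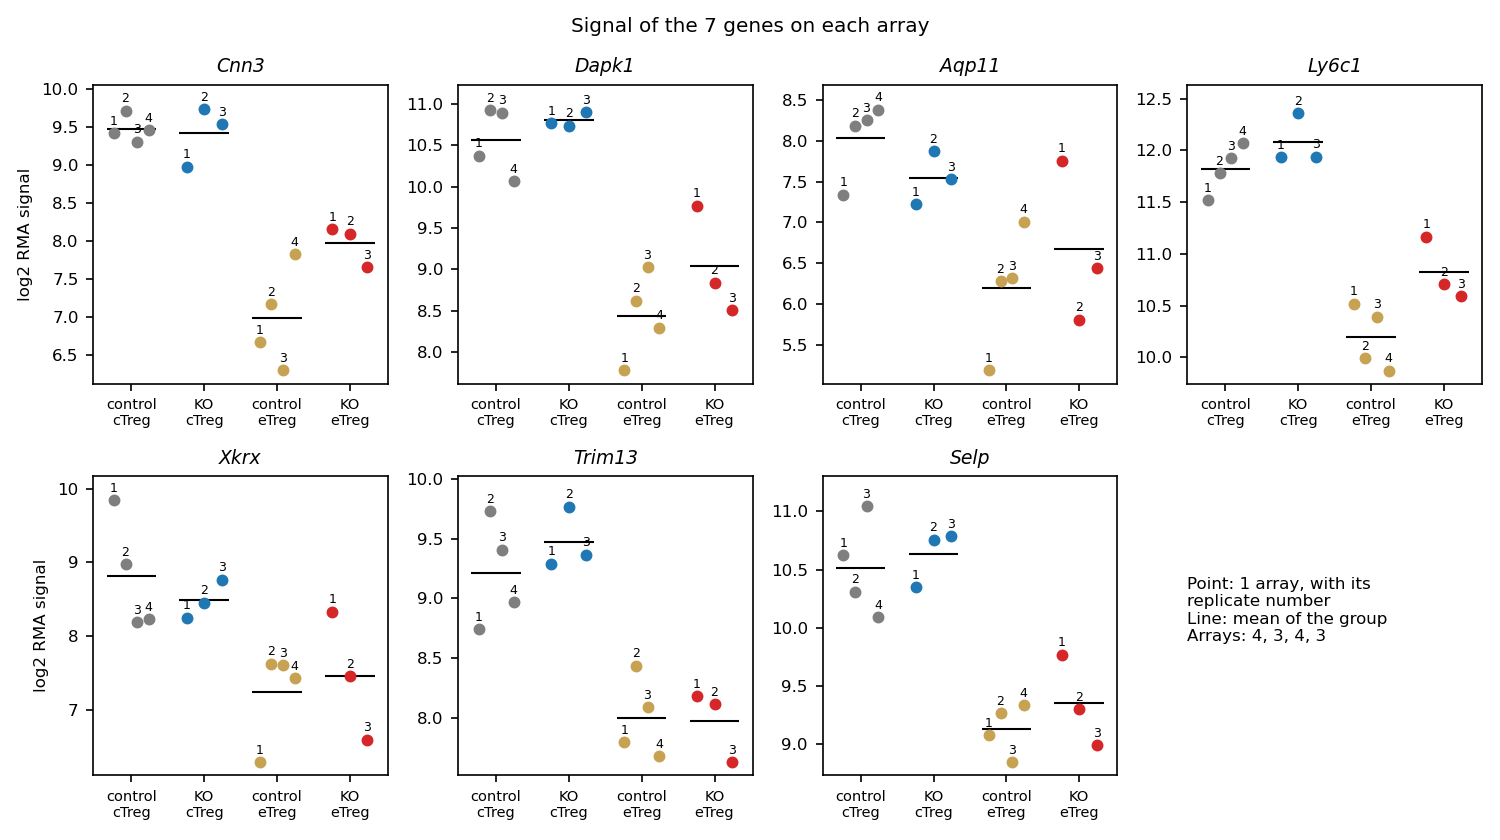
Each panel is 1 gene and each point 1 array, numbered by replicate, with the log2 RMA signal on the y axis and a line at the mean of the group (4 control cTreg, 3 KO cTreg, 4 control eTreg and 3 KO eTreg arrays). KO eTreg 1 is the highest of the 3 KO eTreg arrays in 7 of 7 panels.

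The fall from cTregs to eTregs is what chose these genes and carries no test where it did so. In the controls the log2 differences of the 5 chosen there were -2.48 (Cnn3), -2.14 (Dapk1), -1.84 (Aqp11), -1.63 (Ly6c1) and -1.57 (Xkrx), and that of the next gene, 1700025G04Rik, was -1.44. In the KO arrays those of the 5 chosen there were -1.77 (Dapk1), -1.503 (Trim13), -1.45 (Cnn3), -1.28 (Selp) and -1.26 (Ly6c1), and that of the next gene, Ly6k, was also -1.26. Falls past both the size of 0.5 and an adjusted P of 0.05 were found for 7 of the 7 in controls, where 0.919% of all features had one, and for 5 of the 7 in KO arrays, where 0.329% had one. Nothing is read from these counts for genes chosen on the same contrast.

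The subset comparisons of 4 genes in 1 genotype each did not bring them into the set. These comparisons are still not free of the choice. Each of the 4 genes was outside the 5 largest falls of that genotype, which leans its fall there toward a smaller value. Trim13 and Selp were chosen on KO arrays alone, and both fell in the controls. Trim13 was lower in control eTregs by -1.21 (95% confidence interval -1.67 to -0.76, a 2.32-fold difference, adjusted P = 0.003245 by limma). Selp was lower by -1.39 (interval -1.81 to -0.96, 2.61-fold, adjusted P = 0.0006184 by limma). In both genes all 4 control eTreg arrays lay below all 4 control cTreg arrays.

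Aqp11 and Xkrx were chosen on control arrays alone, and neither reached an adjusted P of 0.05 in the KO arrays. The difference of Aqp11 was -0.87 (interval -1.83 to 0.08, adjusted P = 0.419 by limma), and that of Xkrx -1.03 (interval -1.997 to -0.06, adjusted P = 0.322 by limma). At the study's other threshold, a size of 0.5 with an unadjusted P of 0.05, Xkrx passed and Aqp11 did not, which made 6 of the 7 genes in KO where 1.16% of all features were lower. The KO arrays of both genes overlapped between subsets through KO eTreg 1. Without that array the difference of Aqp11 was -1.42 (adjusted P = 0.0491) and that of Xkrx -1.47 (adjusted P = 0.071), both by limma.

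**Figure D3:**
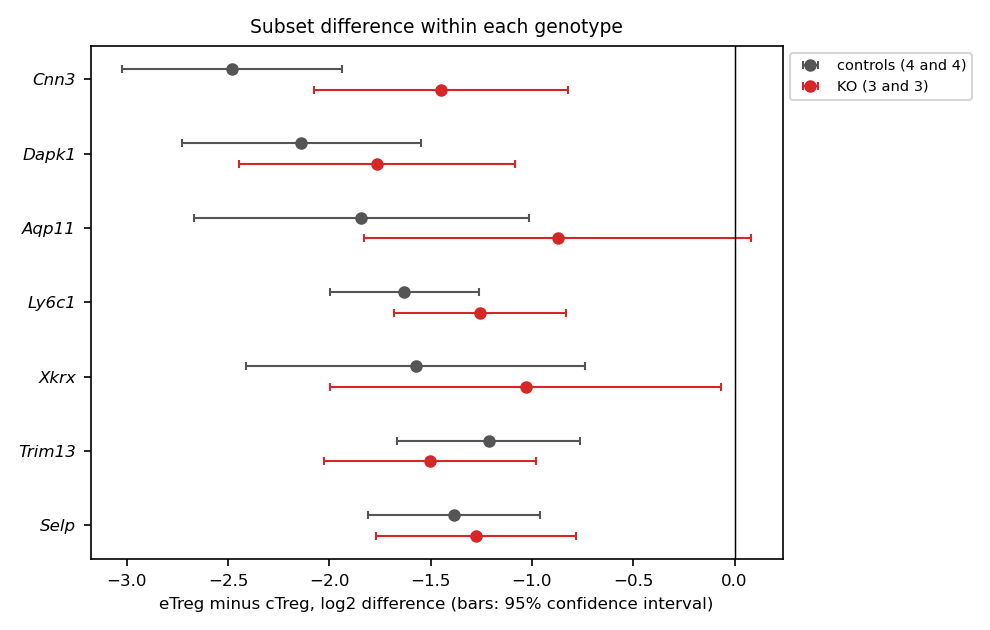
The x axis is the log2 difference of eTregs minus cTregs with its 95% confidence interval, for each of the 7 genes in controls (4 and 4 arrays) and in KO (3 and 3 arrays). All 14 differences lie below 0, from -2.48 (Cnn3, controls) to -0.87 (Aqp11, KO), and the interval of Aqp11 in KO reaches 0.08.

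The question the set was assembled for is whether KO eTregs retain these transcripts. The contrast is a different one from the choice but shares its arrays: genes taken for low control eTregs lean toward a higher KO value, and those taken for low KO eTregs lean the other way. The signal was higher in KO than in control eTregs for 6 of the 7, with a median difference of 0.47 against -0.02 over all features, of which 44.2% were above 0. With array weights 4 of the 7 were above 0 with a median of 0.049, and without control eTreg 1 it was 5 of the 7 with a median of 0.20; the values without KO eTreg 1 are given below. Cnn3 and Ly6c1, 2 of the 7, passed a size of 0.5 with an unadjusted P of 0.05 in that direction, where 1.9% of all features did, and none passed it in the other direction, where 0.82% did. At an adjusted P of 0.05, 0 of the 7 passed, with 0.117% of all features called in either direction.

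Cnn3 was 0.98 higher in KO eTregs (interval 0.39 to 1.56, 1.97-fold, adjusted P = 0.2547 by limma). Ly6c1 was 0.63 higher (interval 0.23 to 1.03, 1.55-fold, adjusted P = 0.2882 by limma). Dapk1 differed by 0.61, which did not pass (interval -0.03 to 1.25, adjusted P = 0.6471 by limma).
The intervals of the other 4 spanned 0 more evenly. The difference of Aqp11 was 0.47 (interval -0.42 to 1.37), that of Xkrx 0.22 (-0.68 to 1.13), that of Selp 0.22 (-0.24 to 0.68) and that of Trim13 -0.02 (-0.51 to 0.47). For Aqp11 and Xkrx these intervals leave room for more than a 2-fold difference upward, so the small estimates do not show equal levels.

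In cTregs 0 of the 7 passed in either direction at the unadjusted threshold, where 0.576% of all features did. The differences between KO and control cTregs ran from -0.50 (Aqp11, interval -1.39 to 0.40) to 0.26 (Trim13, interval -0.23 to 0.75), with a median of 0.11. Ly6c1 was at 0.25 (interval -0.14 to 0.65) and Cnn3 at -0.06 (interval -0.64 to 0.53).

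The difference of both genotype effects equals the fall in KO minus the fall in controls, the quantities that ranked the genes, so its values are not independent of the choice: being picked for a large fall in controls raises it and for a large fall in KO lowers it. Cnn3 passed the unadjusted threshold, with a KO effect 1.03 larger in eTregs than in cTregs (interval 0.21 to 1.86, adjusted P = 0.7892 by limma); 1.82% of all features passed in that direction. The interaction of Aqp11 was of nearly that size but less certain, 0.97 (interval -0.30 to 2.23). Those of Ly6c1 and Dapk1 were 0.37 and 0.37, with intervals of -0.19 to 0.94 and -0.53 to 1.27, both spanning 0.

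**Figure D4:**
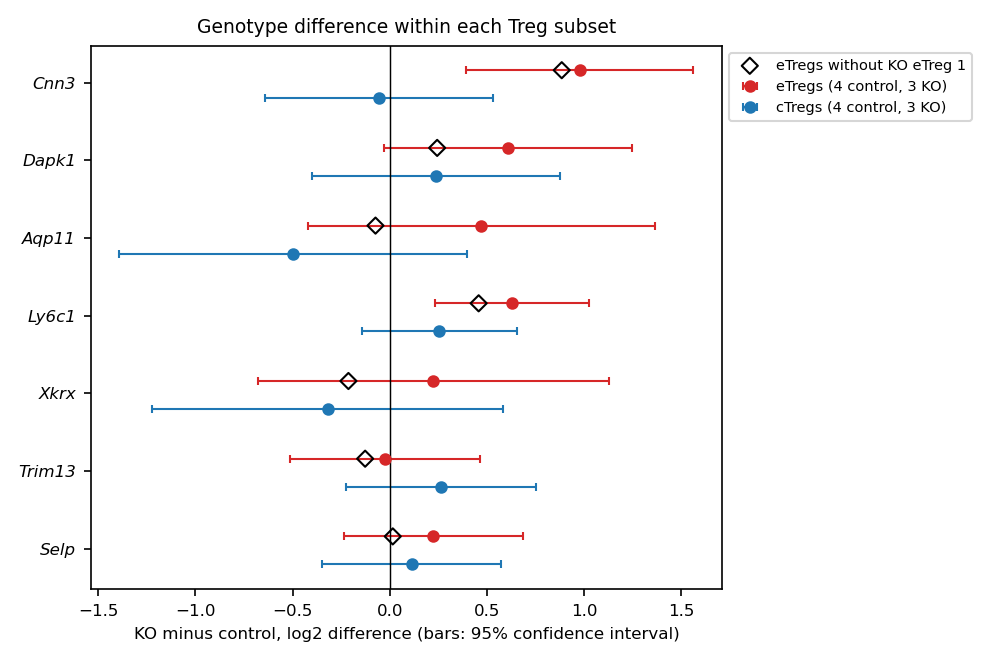
The x axis is the log2 difference of KO minus control with its 95% confidence interval, for each gene in eTregs and in cTregs (4 control and 3 KO arrays each), and open diamonds give the eTreg difference without KO eTreg 1. In eTregs the intervals of Cnn3 and Ly6c1 lie above 0, and without KO eTreg 1 the difference of Aqp11 moves to -0.07 and that of Xkrx to -0.21.

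The 3 KO eTreg arrays were not alike. Each eTreg array was placed, for each gene, on a scale on which the control eTreg mean is 0% and the control cTreg mean 100%. The median over the 7 genes was 59.7% for KO eTreg 1, 13.7% for KO eTreg 2 and 3.72% for KO eTreg 3, and -16.9%, 9.01%, 7.42% and 12.1% for control eTregs 1 to 4. KO eTreg 1 was the highest of the KO eTregs for 7 of the 7 genes, from 14.9% for Trim13 to 84.8% for Aqp11, whose 0% point is at background and so has no measured level. KO eTreg 3 was the lowest for 6.

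In Cnn3, Ly6c1 and Dapk1 all 3 KO arrays lay above 0%. Cnn3 stood at 46.7%, 44.4% and 26.9%, and Ly6c1 at 59.7%, 31.7% and 24.4%. Dapk1 stood at 62.7%, 19.1% and 3.72%. Selp, Xkrx and Trim13 each fell below 0% on KO eTreg 3, and Aqp11 did so on KO eTreg 2.

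Without KO eTreg 1, 4 of the 7 genes were above 0 and their median difference was 0.02. Cnn3 was then 0.88 higher (adjusted P = 0.221 by limma) and still passed the unadjusted threshold, while Ly6c1 was 0.46 higher (adjusted P = 0.328 by limma) and missed the size of 0.5. Dapk1 was at 0.24, Selp at 0.02 and Trim13 at -0.13. The share of all features higher in KO eTregs at the unadjusted threshold rose to 3.62% without that array. The lower effector and higher central gene means of KO eTreg 1, and the higher monocyte and macrophage genes of the other 2 KO arrays, moved with these values; their part in the differences was not tested.

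**Figure D5:**
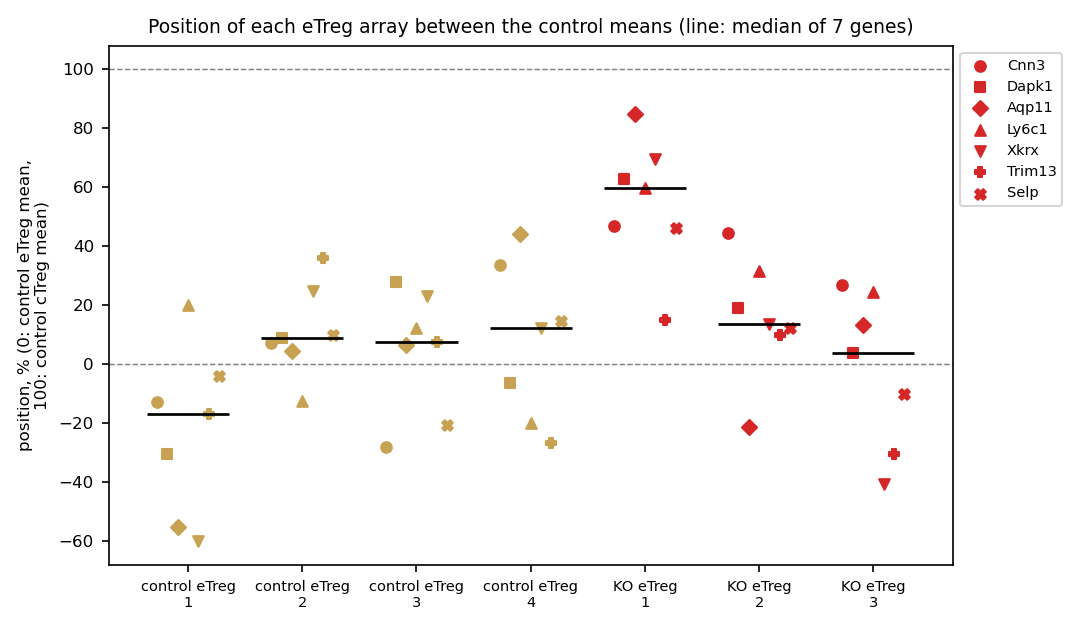
Each column is 1 eTreg array and each symbol 1 of the 7 genes; the y axis is the position of the array between the control eTreg mean (0%) and the control cTreg mean (100%), and the line is the median of the 7. The median of KO eTreg 1 is at 59.7%, and those of the other 6 arrays are between -16.9% and 13.7%.

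The 7 genes varied together across arrays, most of it between the groups. Over the 14 arrays Pearson's r for the 21 pairs ran from 0.65 to 0.92 with a median of 0.83, as the choice itself requires. After the 4 group means were taken off, the median was 0.30 and 19 of the 21 pairs were above 0. Among the 7 eTreg arrays the median was 0.53, and among the 7 cTreg arrays 0.07. These arrays share their normalisation, and the 7 eTreg values include KO eTreg 1.

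The transcripts most like each gene over the 14 arrays were sought among 13317 features above the 40th percentile of mean signal. They were Igfbp4 and Actn1 for Cnn3 (r = 0.956 and 0.955), Mfhas1 and Satb1 for Dapk1 (0.969 and 0.961), and Ptp4a3 and Satb1 for Ly6c1 (0.967 and 0.955). For Selp they were Vipr1 and Cytip (0.957 and 0.954), for Trim13 Ezr and Usp18 (0.955 and 0.95), and for Xkrx Dcaf10 and BC094916 (0.933 and 0.904). For Aqp11, 4930523C07Rik was among them (0.927). Nedd4l, Myc, Vps37b, Actn1 and Mfhas1 were closest to the mean of the 7, at r of 0.973, 0.966, 0.966, 0.962 and 0.96. Within groups the r of Myc was 0.928 and that of Nedd4l 0.779.

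Relatives of the 7 genes were examined to see how far the fall is shared within families. In the calponin family, Cnn2 differed between control subsets by -0.29 (adjusted P = 0.267) and Cnn1 by 0.05, whereas Tagln, which encodes the calponin relative transgelin, fell by 0.56 (adjusted P = 0.0172). Tagln also had an interaction of 0.61 (adjusted P = 0.736), in the same direction as Cnn3. None of Dapk2, Dapk3 and Stk17b passed in either genotype, and the Dapk2 difference in controls was -0.01 (all limma).

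Among the other 11 aquaporins and the other 7 Xk genes 0 were called at adjusted P in controls; Aqp3, a plasma membrane aquaporin, was 0.60 higher in control eTregs (adjusted P = 0.0513 by limma). None of the 5 other Trim genes passed in controls; Trim25, another ubiquitin ligase, was at -0.34 (adjusted P = 0.233) in controls and -0.55 (adjusted P = 0.0696) in KO, by limma.

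The Ly6 family was divided. Ly6c2 fell by 0.77 in controls (adjusted P = 0.00353) and by 0.58 in KO at the unadjusted threshold (adjusted P = 0.0683), and was 0.45 higher in KO than in control eTregs (adjusted P = 0.355). Ly6k fell by 1.15 in controls (adjusted P = 0.00611), and was 0.56 higher in KO eTregs (adjusted P = 0.55) and 0.67 higher in KO cTregs, past the unadjusted threshold in both but the adjusted one in neither, all by limma. Ly6a, which encodes Sca-1, differed by -0.07 in controls and Ly6e by 0.06. Ly6c1 and Ly6c2 are near-identical neighbours, and probes for one may take up the other's RNA, so their values are not independent measurements.

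Among the relatives of Selp, Sele, which encodes E-selectin, differed by -0.56 in controls (adjusted P = 0.08 by limma). Gcnt1 and Fut7, enzymes that build selectin ligands, were higher in eTregs: Gcnt1 rose by 1.92 in control eTregs (adjusted P = 0.00148) and by 2.15 in KO eTregs (adjusted P = 0.00339), and Fut7 rose by 0.70 in control eTregs (adjusted P = 0.0308) and was at 0.55 in KO (adjusted P = 0.197), by limma. Selplg, which encodes the ligand of P-selectin, differed by -0.13 in controls (adjusted P = 0.583).

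Of the genes next to the 7 on the chromosome, Ly6c2 beside Ly6c1 fell in controls at adjusted P. F5 beside Selp, Kcnrg and Spryd7 beside Trim13 and Alg14 beside Cnn3 were not called, with differences of -0.07 for F5 (adjusted P = 0.913) and -0.36 for Alg14 (adjusted P = 0.338), by limma.

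The 22 established central Treg genes were set beside these falls. Their median difference in controls was -0.39, with 9 lower at adjusted P, against -1.63 for the 7. Of the 22, 3 were above 0 there, with Igf1r at 0.47 (adjusted P = 0.0346 by limma), short of the size of 0.5. In KO the median of the 22 was -0.32, with 5 lower. The largest fall among them was that of Satb1, a chromatin organiser, at -1.08 (adjusted P = 9.94e-05), followed by S1pr1 and Klf2 at -0.87 each, which encode the receptor for exit from lymphoid organs and the factor that drives it. Between KO and control eTregs their median was 0.12, 15 of the 22 were above 0 and 0 were called; Satb1 was at 0.41 (adjusted P = 0.357), all by limma. The 7 were chosen for large falls and the 22 were not, so the medians are set side by side without a test.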

How the data were processed

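The authors hybridised RNA of sorted Tregs to Clariom S mouse arrays and deposited 1 matrix of log2 signals for 14 arrays, summarised by RMA in Affymetrix Expression Console 1.1, per the labels' processing notes. RMA quantile-normalises all arrays together, so values are relative signals, comparable between arrays for 1 feature but not between features, and falls near background are compressed. No genome build is given in the sources used here. Of 28846 entries, 6640 control probe sets and 3 without a symbol were left out, and 22203 were tested. No filter on signal was applied; Aqp11 and Xkrx fell under the 40th percentile of mean signal used as an alternative.

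Group means were fitted with limma 3.58.1 (R 4.3.3; lmFit, eBayes, two-sided, Benjamini-Hochberg over all features), with the study's thresholds, a log2 difference of 0.5 with P or adjusted P under 0.05. The script was tested on simulated data. Where a symbol had several rows, the brightest was used. Named genes are the 7, their families, nearest likenesses and neighbours, the first gene outside each choice, and sort and marker genes. Some items this rule names are not reported here. The genes, lists and tests were chosen with earlier results of these data known. The number of arrays limits the precision. Alternatives were array weights, 2-group fits, a signal filter, 2 scalings, a trended prior, 3 replicate blocks, the other Trim13 row and leaving out each array. Figures were drawn with matplotlib 3.10.9.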

Additional observations from a re-analysis of the deposited data

Results flagged for a closer look

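On control eTreg 1 the signal of Xkrx was 6.29, within the 6.00 to 6.30 of the background medians. The other control eTregs read 7.43 to 7.63. The gap to the nearest array was 0.85 of the whole range of the group, above Dixon's 95% critical value for 4 samples. It was the only 1 of 14 groups of 4 arrays examined (7 genes in 2 control groups) to be so far out, and chance gives about 1 in 20. Without it the difference of Xkrx between KO and control eTregs turned from 0.22 to -0.09, and its fall in controls was -1.26 (adjusted P = 0.111 by limma). The fall in controls is what chose Xkrx, so that value is description only. The effect of the KO on Cnn3 differed between eTregs and cTregs by 1.03 (adjusted P = 0.7892 by limma). This equals the difference of the falls that ranked the genes. The choice of Cnn3 as the largest fall in controls raises it, and its choice among the 5 largest falls in KO lowers it. On these arrays 3 of 3 KO eTreg arrays lay above the control eTreg mean, and the KO cTreg arrays lay on both sides of the control cTreg mean.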

How the results depend on the processing

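Selp and Trim13 were not chosen on their falls in controls. Both falls kept their direction and adjusted call under every alternative run, except that of Trim13 on its other row. The falls in controls of Cnn3, Dapk1, Aqp11 and Ly6c1 kept theirs too where run, but those falls chose the genes, so their calls carry no test. The signal filter removed Aqp11 and Xkrx. The fall of Xkrx in controls and that of Cnn3 in KO also chose their genes and are description only. The fall of Xkrx in controls kept its direction but lost its call with an intensity trend (adjusted P = 0.0945 by limma). It also lost it with both fixed blocks below and without control cTreg 1 or 2 or any 1 control eTreg (highest adjusted P = 0.115). In KO the fall of Cnn3 lost its adjusted call without KO cTreg 2 or 3 or KO eTreg 3 (highest 0.0859). Cnn3 was higher in KO eTregs by 0.74 to 1.25 over all alternatives and passed the unadjusted threshold in each. The genes higher in KO eTregs at that threshold numbered 1 to 3 when 1 array was left out (1 without KO eTreg 1, 3 without control eTreg 3 or KO eTreg 3) and 2 otherwise, while the share of all features called was 1.42% at the lowest, leaving out KO eTreg 2, 3.62% at the highest, leaving out KO eTreg 1, and 2.87% with array weights. Genes with a larger difference in eTregs numbered 0 to 2: 0 with array weights or without KO cTreg 1, and 2 without control eTreg 4 or KO eTreg 2. With array weights the differences were -0.039 for Aqp11 and -0.33 for Xkrx in eTregs, 0.064 for Cnn3 in cTregs, and -0.24 (Xkrx) and -0.075 (Selp) for the interaction, and the Cnn3 interaction, at 0.68, no longer passed. On the other Trim13 row they were 0.053 in eTregs, -0.041 in cTregs and 0.093 for the interaction. Leaving out 1 array turned the sign of small differences: in eTregs -0.074 to 0.90 for Aqp11, -0.21 to 0.66 for Xkrx and -0.13 to 0.15 for Trim13; in cTregs -0.22 to 0.16 for Cnn3, -0.53 to 0.025 for Xkrx and -0.028 to 0.29 for Selp; for the interaction -0.099 to 0.29 for Selp. The cause of these moves was not tested. Same-numbered cTreg and eTreg arrays deviated together only weakly: r was 0.0443 to 0.303 over 7 pairs, 5 of them above 0.1, and 6 of the 7 correlated best with their own number. The labels do not say whether same-numbered arrays came from the same chimera. The main fit did not pair them, so it does not take out a difference that such arrays may share. With chimera as a random block the Cnn3 interaction was 1.03 with an adjusted P of 0.381, against 0.7892 in the main fit, both by limma. With the replicate number as a fixed block the fall of Xkrx in controls had an adjusted P of 0.0658, the Cnn3 difference in cTregs was 0.080 and 2 genes were still higher in KO eTregs; with chimera as a fixed block the adjusted P of Xkrx was 0.109, and with chimera as a random block the fall of Xkrx kept its call.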
